A study of Mus musculus with 27 samples.

Results

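ETS and SOXF genes encode transcription factors of the endothelial lineage, and the arrays followed 10 of them from FLK1+ mesoderm through hemogenic endothelium to blood progenitors: the ETS genes Etv2, Ets1, Ets2, Erg, Fli1, Elk3 and Etv6 and the SOXF genes Sox7, Sox17 and Sox18. These are 10 of 37208 genes or transcripts on the array, found by matching the RefSeq accession of each probe to a gene symbol. All 10 were found, with 16 probes between them, and the brightest probe of each gene was used. Etv2, Ets1, Erg, Elk3 and Sox17 had 6 other probes, none of which changed in the opposite direction in the steps into HE1 or from HE1 to HP, while 4 of the 6 did for DOX in HE2. RNA came from the dnFOS line, a mouse embryonic stem cell (ESC) line derived from picked clones, in which doxycycline (DOX) induces dnFOS, a dominant-negative form of FOS with a Flag tag, to block the factor AP-1. The untreated cells carry the same cassette, and no cells without it were given DOX on these arrays.

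The 13 groups were as follows. FLK1+ cells were purified from untreated embryoid bodies after 3.75 days of differentiation. Whole blast cultures of these cells were taken after 5 h (FLK1+ 5h) and after 1 day (d1 BC), each without DOX or with 1 µg/ml DOX for the same time. Smooth muscle (SM) cells, early hemogenic endothelium (HE1, KIT+ TIE2+ CD41-), late hemogenic endothelium (HE2, KIT+ TIE2+ CD41+) and floating hematopoietic progenitors (HP, KIT+ TIE2- CD41+) were sorted from blast cultures, each without DOX or after 2 days of DOX. Every group held 2 arrays, apart from untreated SM with 3. The labels do not say that replicates came from separate cultures, so the p-values measure the spread between these samples, which may be technical. The dimmest array, untreated HE2 replicate 1, had a 75th percentile of 73.2 and the brightest one of 639, and 47.0% to 89.6% of probes were well above background. Levels are log2 signals scaled to the 75th percentile of each array, and because each probe has its own brightness they are compared between samples and never between genes.

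ETS proteins share a DNA-binding domain that recognises a GGAA core, and nearly every endothelial enhancer holds such elements. ETV2 is the ETS factor that starts the endothelial and blood programme in FLK1+ mesoderm and is normally expressed for a short time. ERG, FLI1 and ETS1 act later and maintain endothelial genes. ELK3 and ETV6 act mainly as repressors. SOX7, SOX17 and SOX18 form the SOXF group, act with ETS factors at endothelial enhancers, and are known to be lost as hemogenic endothelium turns into blood.

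RefSeq promoter sequences on GRCm38.p6 were at hand for 5 of the 10 genes. Shown are those of Etv2, which fell, and of Ets2, Elk3 and Erg, which rose, in the steps described below. The 250 bases before the annotated start follow, 5′ to 3′ on the strand of the gene, with each GGAA, the ETS core, or its reverse complement TTCC in capitals. For Erg, which has 3 annotated starts in this set, the start farthest upstream is shown.
Etv2, chr7:30635853-30636102, minus strand: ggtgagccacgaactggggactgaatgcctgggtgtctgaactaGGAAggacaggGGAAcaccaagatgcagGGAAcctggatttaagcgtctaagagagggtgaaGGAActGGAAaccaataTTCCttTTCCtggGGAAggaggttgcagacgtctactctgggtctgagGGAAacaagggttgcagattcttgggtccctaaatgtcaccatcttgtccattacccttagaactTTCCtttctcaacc
Ets2, chr16:95702157-95702406, plus strand: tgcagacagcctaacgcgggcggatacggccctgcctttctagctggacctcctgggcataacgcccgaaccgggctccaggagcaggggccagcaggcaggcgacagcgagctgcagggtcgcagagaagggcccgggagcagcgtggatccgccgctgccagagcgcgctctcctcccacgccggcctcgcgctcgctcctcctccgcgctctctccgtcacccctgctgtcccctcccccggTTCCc
Elk3, chr10:93311160-93311409, minus strand: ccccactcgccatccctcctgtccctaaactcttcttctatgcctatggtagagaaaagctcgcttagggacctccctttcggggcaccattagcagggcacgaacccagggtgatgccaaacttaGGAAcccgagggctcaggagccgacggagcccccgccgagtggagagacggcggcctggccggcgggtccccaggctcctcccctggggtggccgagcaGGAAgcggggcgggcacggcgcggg
Erg, chr16:95586594-95586843, minus strand: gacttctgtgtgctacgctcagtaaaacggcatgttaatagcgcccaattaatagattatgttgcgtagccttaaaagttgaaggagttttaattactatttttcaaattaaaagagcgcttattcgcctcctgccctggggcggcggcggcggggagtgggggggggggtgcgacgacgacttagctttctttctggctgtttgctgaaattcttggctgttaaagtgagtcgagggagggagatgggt
The Etv2 window held 10 ETS cores on either strand, a number reached or passed by 0.192% of all 32851 promoter windows of this length, whose median was 3. The windows of Ets2, Elk3 and Etv6 held 1, 2 and 3, and the 3 Erg windows held 0, 4 and 2. The AP-1 motif TGANTCA, found in 6.75% of all windows, was in none of these 7 windows. The TEAD motif GGAATG, in 12.6% of all windows and overlapping the ETS core, was in 1 Erg window, as was the SOX motif ACAAT, in 27.7%, in another. A match describes the letters of the window and is not evidence of binding. Ets1 and Fli1 are neighbours in the genome with 0 protein-coding genes between them, and so are Ets2 and Erg.

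A pair of SM arrays stood apart, and they are described before any comparison because all 10 genes were affected. Untreated SM replicate 2 and SM DOX replicate 2 lay on the same slide. Their mean over the 6 endothelial markers Cdh5, Pecam1, Tek, Kdr, Flt1 and Emcn was 1.89 and 1.76, against -0.53 and -0.34 on the other untreated SM arrays and -0.46 on SM DOX replicate 1. The summed normalized signal of these markers was 89.2 and 109 on the replicate 2 arrays, against 12.4 to 19.8 on the other SM arrays and 105 to 200 on the 4 HE1 arrays. All 6 markers were well above background on both arrays, but also on SM replicate 1 and SM DOX replicate 1, and 5 were on SM replicate 3. Untreated SM replicate 2 had the highest share of probes well above background in the series, 89.6%, where the next highest was 74.8%. The level of Cdh5, the endothelial cadherin, was 4.34 and 4.74 there, -1.12 and -0.41 on the other untreated SM arrays and -1.39 on SM DOX replicate 1, and the HE1 arrays lay between 5.09 and 6.68. The 6 smooth muscle markers did not part in this way. Their mean was 4.87 and 4.61 on the replicate 2 arrays and 3.77 to 4.77 on the other SM arrays, and their sum was 2027 and 1680 against 758 to 1562. The replicate 2 arrays thus held both sets of markers. They were lower in the mean of pluripotency markers, at -2.79 and -3.51 against -0.15 to 0.43, of erythroid markers, at 0.43 and -0.22 against 1.63 to 2.75, and of feeder fibroblast markers, at 0.60 and 0.87 against 2.53 to 3.02. The sums were also lower for pluripotency (0.91 and 0.57 against 12.1 to 21.9) and erythroid markers (65.5 and 56.4 against 167 to 409). For feeder markers the sums were 136 and 68.5 against 77.2 to 137, so they were not lower on both arrays. The mean of hematopoietic markers (-0.64 and -0.84) lay within the range of the other SM arrays (-1.80 to -0.62). Their sums were higher, at 6.25 and 7.08 against 2.45 to 5.59. Myeloid markers had means of -0.85 and -2.27 against -2.10 to -0.82. Cardiac and early mesoderm markers had lower means, at -2.74 and -2.18 against -1.92 to -1.64, but higher sums, at 2.39 and 3.56 against 1.49 to 2.12. Whether other cells in the sort account for this was not tested.

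On both of these arrays all 10 ETS and SOXF genes were higher than on every other SM array of the same treatment, and all 10 were nearer to the mean of HE1 than to the other SM arrays. How many of all genes did so was not counted. Over 28336 genes, untreated SM replicate 2 correlated at 0.960 with the HE1 mean and at 0.929 and 0.917 with the other untreated SM arrays. SM DOX replicate 2 correlated at 0.962 with the HE1 DOX mean and at 0.92 with SM DOX replicate 1. Nearness to HE1 was thus not shown to be particular to these 10 genes. Sox7, a SOXF factor of early endothelium, was at 3.86 on untreated SM replicate 2, against -2.18 and -1.96 on the other untreated arrays, and at 4.98 against -2.05 with DOX. Erg was at 0.18 against -3.29 and -3.97, and at 0.23 against -4.41 with DOX. Etv6 differed least, by 1.06 without and 1.73 with DOX on the log2 scale. These arrays set much of the spread between replicates that every test uses: the pooled SD of Sox7 was 1.94 with them and 0.629 without them. Each result is therefore given from all 27 arrays and, where it changes, from a fit without these 2 arrays, which was chosen after seeing the data. That choice rested partly on the 10 genes themselves, so more calls among them in that fit follow in part from the choice. The shares over all genes in that fit are therefore no even yardstick for the 10.

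**Figure D1:**
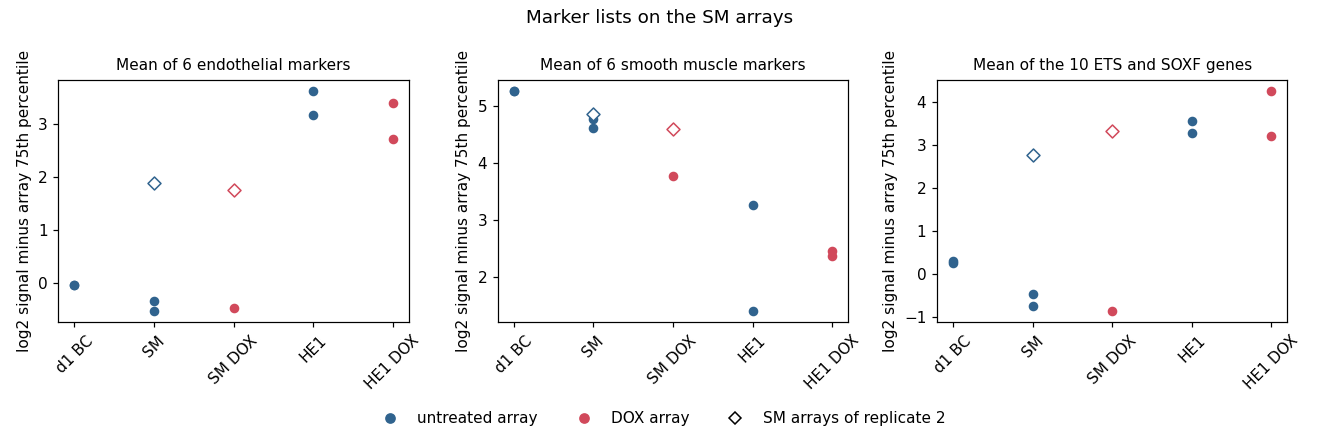
Each point is 1 array, untreated in blue and DOX-treated in red, and the vertical axis is the mean log2 signal, scaled to each array's 75th percentile, over 6 endothelial markers, 6 smooth muscle markers or the 10 ETS and SOXF genes. The SM arrays of replicate 2, drawn as open diamonds, lie at 1.89 and 1.76 for endothelial markers while the other SM arrays lie below 0.

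Transcripts of the sort markers did not match the gate in every library. Kit was between 3.24 and 3.91 on the HE1 arrays and at or below 0.85 on the SM arrays. Itga2b, which encodes CD41, was 2.64 and 3.77 on the untreated HE2 arrays against 1.33 and 0.87 on the untreated HE1 arrays. With DOX, HE2 replicate 2 had an Itga2b level of 0.05 and a level of -0.75 for Tek, which encodes TIE2, where HE2 replicate 1 had 3.83 and 2.71. HE1 replicate 2 with DOX had a Tek level of 0.20 against 2.75 on replicate 1. Among the CD41+ HP libraries, Itga2b was 3.25 and 3.01 without DOX and 0.43 and 2.61 with DOX, so that HP DOX replicate 1 lay below the CD41- library HE1 DOX replicate 1 at 1.94. Tek in the TIE2- HP cells was 0.58 and -1.42 without and -1.94 and -2.18 with DOX. RNA levels thus went against the CD41 gate in HE2 DOX replicate 2 and HP DOX replicate 1. For TIE2, untreated HP replicate 1, sorted as TIE2-, had more Tek than the TIE2+ libraries HE1 DOX replicate 2 and HE2 DOX replicate 2.

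Over untreated differentiation 6 of the 10 genes varied by limma's F test over the 7 untreated groups (adjusted p under 0.05), against 17.8% of all genes tested. These were Erg (adjusted p = 9.2e-05), Etv2 (0.00017), Elk3 (0.0030), Ets2 (0.0073), Sox18 (0.0089) and Etv6 (0.04997). Ets1 (0.116), Fli1 (0.179), Sox17 (0.227) and Sox7 (0.331) did not pass. Without the 2 SM arrays all 10 passed, against 20.2% of genes.

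**Figure D2:**
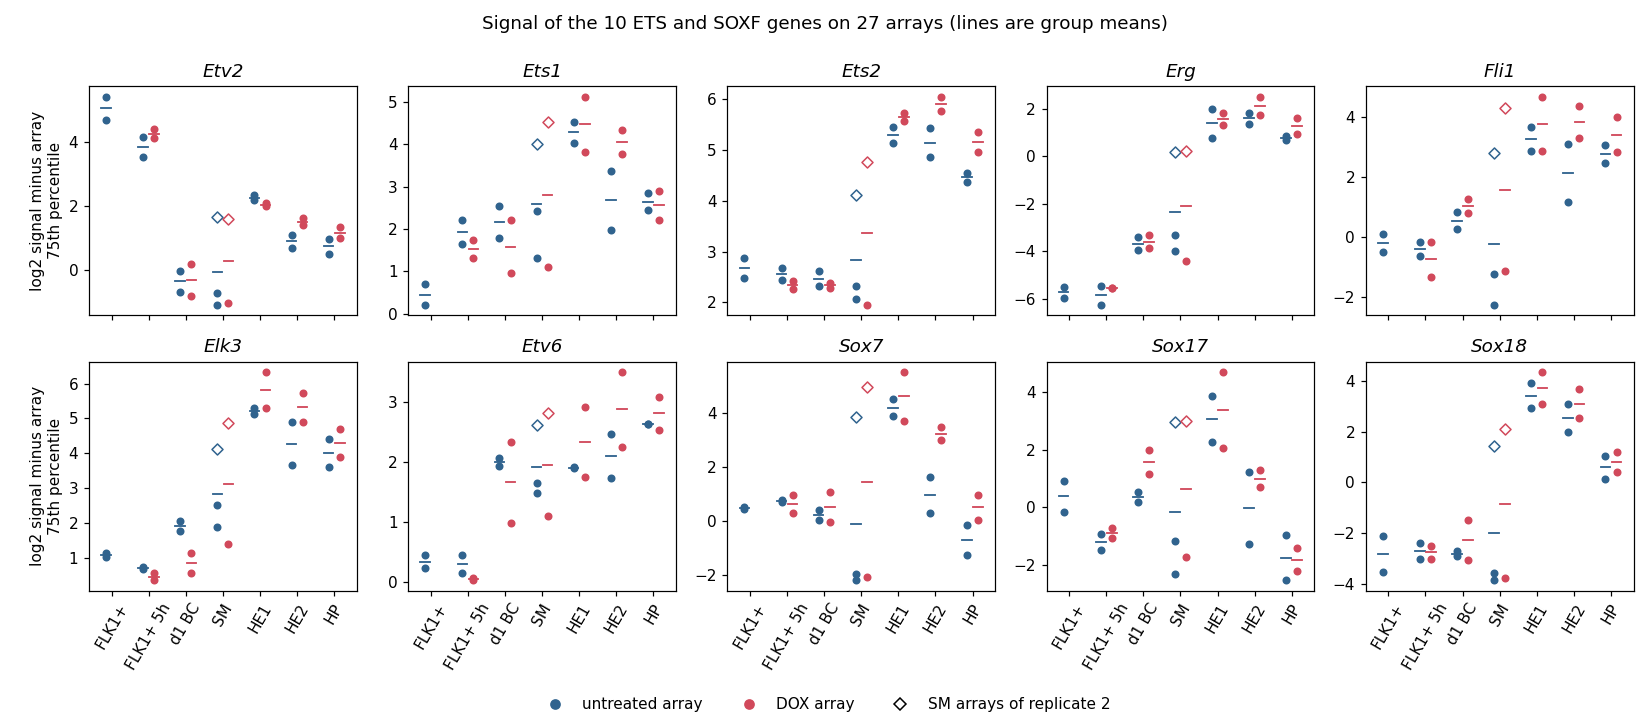
Log2 signal of the 10 genes, scaled to each array's 75th percentile, with 1 point per array, the 7 populations along the horizontal axis, untreated arrays in blue, DOX arrays in red and a line at each group mean. Etv2 is highest in FLK1+ cells (4.70 and 5.41), most of the other genes are highest in HE1 or HE2, and the open diamonds are the SM arrays of replicate 2.

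Etv2 was highest at the start. Its level was 5.41 and 4.70 in FLK1+ cells, 3.52 and 4.14 in FLK1+ 5h cultures, and -0.03 and -0.69 in d1 BC. It was 2.33 and 2.17 in HE1, 0.68 and 1.09 in HE2, 0.50 and 0.96 in HP cells, and -0.72, 1.65 and -1.10 in SM cells. The arrays of FLK1+, 5h, HE1 and HE2 did not overlap in that order, whereas HE2, HP, SM and d1 BC overlapped with their neighbours. From 5 h to d1 BC Etv2 fell by 4.19 on the log2 scale, or 18.3-fold (SE 0.80, limma adjusted p = 0.012). It was the only one of the 10 genes called in this step, where 1.41% of genes were called, meaning a change of 2-fold or more with an adjusted p under 0.05. With DOX, the level went from 4.11 and 4.41 at 5 h to 0.17 and -0.82 at day 1. Etv2 again fell and was again the only one of the 10 called (log2 change -4.58, SE 0.80, adjusted p = 0.0061, against 1.36% of genes). Within slides the change was -4.83 without DOX, and -3.94 and -5.23 with DOX, on the slides that held both groups. The untreated call was lost without FLK1+ 5h replicate 1 (adjusted p = 0.087), FLK1+ 5h replicate 2 (0.063) or d1 BC replicate 2 (0.178), with a log2 change between -4.50 and -3.86. The call with DOX was lost without FLK1+ 5h DOX replicate 2 (0.062) or d1 BC DOX replicate 2 (0.109). From FLK1+ cells to HE1 the net change was -2.81 (SE 0.80, adjusted p = 0.029). The higher level in HE1 than in d1 BC, by 2.61, did not pass (adjusted p = 0.087). Without the 2 SM arrays that rise was called (SE 0.47, adjusted p = 0.0033).

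Between FLK1+ cells and 5 h of culture 0 of 9 tested genes were called, against 2.85% of all genes, and 0 had an unadjusted p under 0.05, where 15% of genes did. Without the 2 SM arrays Etv2 (-1.22, unadjusted p = 0.020) and Ets1 (1.48, 0.032) did, with adjusted p of 0.198 and 0.246, where 16.5% of genes did. Erg was not tested here because its probe was not well above background on any array of either group. Ets1 was 0.21 and 0.69 in FLK1+ cells and 2.21 and 1.64 at 5 h, a difference of 1.48 that did not pass (adjusted p = 0.485).

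Several of the genes rose on the way to HE1. Between d1 BC and HE1, 4 of the 10 genes rose and 0 fell, where 3.14% of all genes were called, and with DOX the same 4 genes rose, where 4.1% were called. Over the 10 genes the median log2 change was 2.77 without and 3.11 with DOX, against 0.06 and 0.08 over all genes tested. This step sets a whole culture against a sorted population. The mean of the 6 smooth muscle markers was 5.27 and 5.28 in untreated d1 BC and 3.26 and 1.39 in untreated HE1. The endothelial mean was -0.03 on both d1 BC arrays and 3.17 and 3.63 in HE1. The part of cell composition in the rise was not tested.

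Erg, a factor that maintains endothelial identity, was not well above background in FLK1+ cells or at 5 h. In d1 BC it stood at -3.94 and -3.40, in HE1 at 1.97 and 0.78, in HE2 at 1.36 and 1.82, and in HP cells at 0.68 and 0.84. All HE1, HE2 and HP arrays lay above all d1 BC arrays, and HE1 and HE2 overlapped. The log2 change from d1 BC to HE1 was 5.04, or 33.0-fold (SE 1.17, adjusted p = 0.023), and with DOX it was 5.14 (adjusted p = 0.016). From FLK1+ cells, where the probe gave only a bound, Erg in HE1 was at least 47.6-fold higher (adjusted p = 0.00067). That bound sets the mean of HE1 against the lowest signal among probes well above background on each FLK1+ array, or the Erg probe itself where that was higher. Between 5 h and d1 BC Erg was at least 2.68-fold higher. This passed without the 2 SM arrays (adjusted p = 0.040, against 2.01% of genes called) and not with them (0.548).

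Elk3, a repressor of the ternary complex factor family, was 2.05 and 1.75 in d1 BC, 5.29 and 5.13 in HE1, 3.66 and 4.89 in HE2 and 3.60 and 4.40 in HP cells. It rose by 3.31 from d1 BC to HE1, or 9.92-fold (SE 0.86, adjusted p = 0.041). With DOX the d1 BC arrays were lower, at 1.13 and 0.57, and HE1 was at 5.31 and 6.34, a rise of 4.98 (adjusted p = 0.0025). The groups did not overlap in either case.

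Ets2, an ETS factor regulated by RAS and MAP kinase signals, stayed within 2.32 to 2.87 on the 6 untreated arrays of FLK1+, 5h and d1 BC. It was 5.46 and 5.13 in HE1, 4.86 and 5.43 in HE2 and 4.54 and 4.38 in HP cells. The change from d1 BC to HE1 was 2.83, or 7.11-fold (SE 0.71, adjusted p = 0.035), and 3.32 with DOX (adjusted p = 0.011).

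Sox18, a SOXF factor of arterial and lymphatic endothelium, was between -3.54 and -2.14 on the 6 untreated arrays of FLK1+, 5h and d1 BC. It stood at 2.91 and 3.91 in HE1, 2.00 and 3.08 in HE2 and 0.12 and 1.05 in HP cells. From d1 BC to HE1 it rose by 6.23 on the log2 scale (SE 1.53, adjusted p = 0.032), and by 6.00 with DOX (adjusted p = 0.031).

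Of the other 6 genes, 5 were higher on both HE1 arrays than on both d1 BC arrays and 1, Etv6, was lower on both. Across all genes tested, the HE1 arrays lay wholly above the d1 BC arrays for 30% of genes and wholly below them for 29.6%. Sox7 was 0.40 and 0.05 in d1 BC and 3.89 and 4.51 in HE1, a difference of 3.97 (adjusted p = 0.247). Fli1, an ETS factor of endothelium and blood, was 0.27 and 0.83 in d1 BC and 2.86 and 3.66 in HE1, a difference of 2.71 (adjusted p = 0.347). Both were called once the 2 SM arrays were left out (Sox7 adjusted p = 0.0013, Fli1 0.046). In that fit 7 of the 10 genes rose, against 4.78% of genes called, and with DOX 8 rose, against 5.53%. Sox17, a SOXF factor of arterial and hemogenic endothelium, was 0.18 and 0.53 in d1 BC and 2.25 and 3.86 in HE1, and its difference of 2.70 passed in neither fit (adjusted p = 0.358, and 0.105 without the SM arrays). Ets1 was 2.53 and 1.79 in d1 BC and 4.03 and 4.53 in HE1 (difference 2.12, adjusted p = 0.247). Etv6 was 2.07 and 1.93 in d1 BC and 1.91 and 1.90 in HE1.

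Limits of this step are large. Leaving out any 1 of the 4 arrays ended all 4 untreated calls, where 0.581% to 1.37% of all genes were called, and with DOX left only Elk3 called, against 1.1% to 2.18%, with directions kept. D1 BC and HE1 shared no slide, so slide and population cannot be told apart except through the SM arrays. With the slide as a fixed block 0 of the 10 were called, against 0.386% of genes, and the Erg change was 2.20. In that fit Sox7 was lower in HE1 by 0.30 and Fli1 lower by 0.44. The SM arrays that link the slides include the 2 that stood apart, where Sox7 and Fli1 were high. A fit with the slide as a block and without those 2 arrays was not run.

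From FLK1+ cells to HE1, 5 of the 10 genes rose and 1, Etv2, fell, against 11.5% of all genes. Besides Erg these were Elk3 (log2 change 4.14, adjusted p = 0.0041), Ets1 (3.83, 0.012), Ets2 (2.62, 0.023) and Sox18 (6.25, 0.013). Without the 2 SM arrays Fli1 (3.45, adjusted p = 0.0052) and Sox7 (3.72, 0.000965) were added, where 14.2% of genes were called. These groups also shared no slide and were linked only through the same SM arrays. With the slide as a fixed block 1 of the 10 was called, against 8.91% of genes, and Sox7 was lower in HE1 by 0.69. Leaving out any 1 of the 4 arrays left 2 or 3 of the 6 calls, against 3.54% to 5.91% of genes, with Elk3 and Erg called each time. Etv6, a repressor needed in blood stem cells, was 0.45 and 0.22 in FLK1+ cells, 2.07 and 1.93 in d1 BC, 1.91 and 1.90 in HE1 and 2.63 and 2.64 in HP cells. Its arrays in d1 BC and all later populations lay above those of FLK1+ cells and 5h cultures, and no single step of Etv6 was called.

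Because the untreated SM group was split, the comparison of SM with HE1 depended on 1 array. In all arrays 0 of the 10 genes were called between SM and HE1, against 0.521% of genes, although 8 had an unadjusted p under 0.05, where 8.6% of genes did. With DOX 0 were called, against 0.0946%, and 5 had an unadjusted p under 0.05, where 7.08% of genes did. Without the 2 SM arrays 9 of the 10 were called higher in HE1 without DOX, against 3.49% of genes. That fit takes away the high SM values of these same genes, so more calls among them were fixed by the choice. With DOX the median log2 change over the 10 was then 4.67. The DOX side then rested on 1 SM array, assumed to vary like the other groups. Without SM replicate 2 alone, 7 were called in untreated cells, against 2.35% of genes.

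The size of that gap can be read within slides. On the slide that held SM replicate 3 and HE1 replicate 1, Sox18 was higher in HE1 by 6.78, Erg by 5.93, Sox7 by 5.85, Fli1 by 5.12 and Sox17 by 4.57. On the slide of replicate 2 the same differences were 2.48, 0.60, 0.65, 0.85 and 0.90. Etv6 was called in neither fit. Its SM arrays were 1.65, 2.62 and 1.49 and its HE1 arrays 1.91 and 1.90, so that only SM replicate 2 lay above HE1. Between d1 BC and SM 0 genes of the 10 were called with or without those arrays, against 0.242% and 0.363%, and 0 had an unadjusted p under 0.05 over all arrays and 3 without those 2, where 6.02% and 5.95% of genes did.

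**Figure D3:**
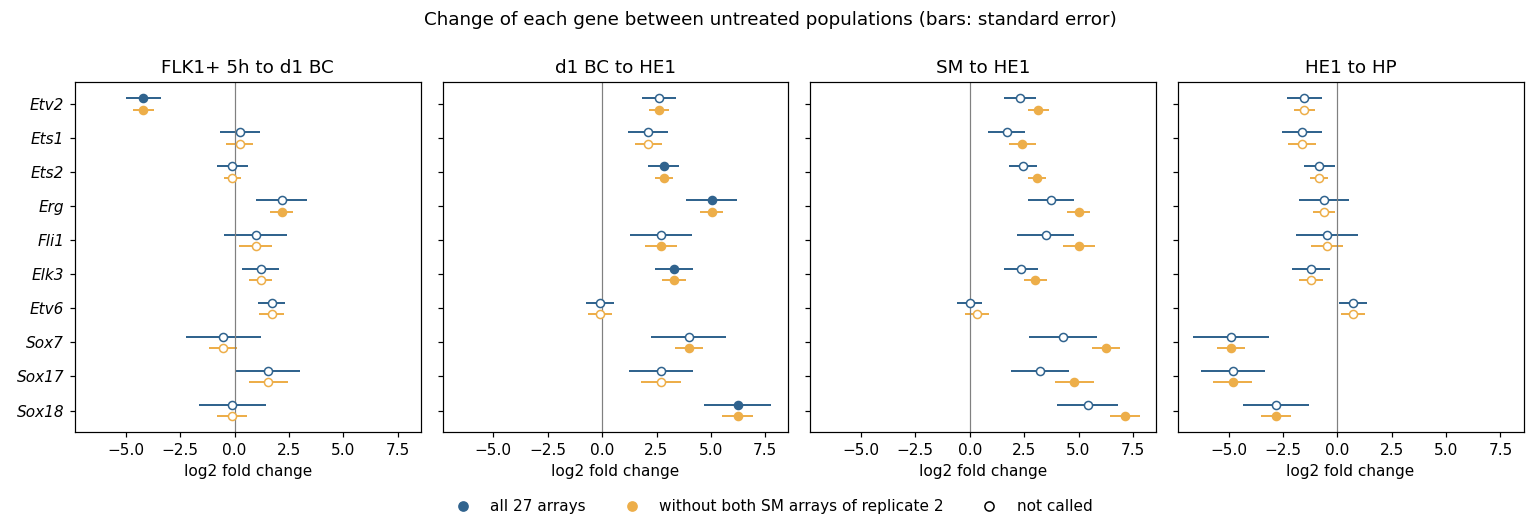
Log2 fold change of each of the 10 genes in 4 steps between untreated populations, with bars of 1 standard error from limma, from all 27 arrays (blue) and without both SM arrays of replicate 2 (orange). Filled points were called, and leaving out the SM arrays moves the SM to HE1 changes and shortens the bars of Sox7 from 1.73 to 0.646 in each of the steps between groups of 2.

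After HE1 the largest differences among the 10 were in SOXF genes. Sox17 was 2.25 and 3.86 in HE1, -1.29 and 1.22 in HE2 and -2.54 and -0.97 in HP cells. Sox7 was 3.89 and 4.51 in HE1, 0.29 and 1.62 in HE2 and -1.24 and -0.14 in HP cells. For both genes the HE1 arrays lay above all HE2 and HP arrays. Of all genes, 16.1% lay wholly lower in HE2 than in HE1, and 24.1% lay wholly lower in HP cells. Over all 27 arrays limma called 0 of the 10 genes between HE1 and HP, against 4.2% of genes, and 2 had an unadjusted p under 0.05, where 13.6% of genes did. These were Sox17, with a log2 change of -4.81 (SE 1.47, adjusted p = 0.079), and Sox7, with -4.89 (SE 1.73, adjusted p = 0.151). Both groups were present on 2 slides, and within them Sox17 changed by -4.79 and -4.82 and Sox7 by -5.12 and -4.65. With the slide as a fixed block 3 of the 10 were called, Sox17 (adjusted p = 0.0047), Sox7 (0.011) and the ETS gene Ets1 (-1.64, 0.021), against 10.1% of genes. The same 3 were called with DOX (0.0034, 0.035 and 0.011), against 6.97%.

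Without the 2 SM arrays the 3 SOXF genes, and none of the 7 ETS genes, were called lower in HP cells than in HE1, against 5.33% of genes. Sox7 had an adjusted p of 0.00019, Sox17 of 0.0035 and Sox18, which changed by -2.83, of 0.022. The same 3 genes were called with DOX in that fit, by -4.11, -5.21 and -2.91, against 3.89% of genes. In that fit 6 of the 10 had an unadjusted p under 0.05 and 5 with DOX, where 15.4% and 11.6% of genes did. Over all arrays with DOX 0 were called, against 3.03%, and the Sox17 change of -5.21 had an adjusted p of 0.065.

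For the 7 ETS genes, the log2 change between HE1 and HP was -1.51 for Etv2, -0.61 for Erg, -0.49 for Fli1, -0.83 for Ets2, -1.21 for Elk3, -1.64 for Ets1 and 0.73 for Etv6, each with an adjusted p of 0.443 or more. These values depended on the probe. The other Ets1 probe was called over all arrays at -2.10 (limma adjusted p = 0.037 over all probes) and with DOX at -2.35 (0.025), where 3.59% and 2.36% of all probes were called, and the dimmest of the 3 Elk3 probes changed by -2.36 (0.065) and by -2.01 with DOX (0.183). Whether SOXF and ETS genes differed in this step was not tested. Etv6 was the only one of the 10 with both HP arrays above both HE1 arrays, where this held for 26.1% of all genes. In the single steps 0 of the 10 were called over all arrays. Between HE1 and HE2, 2.3% of genes were called, 1.31% with DOX, and between HE2 and HP 0.00395% and 0%. Of the 10 genes 1, Sox17, with a log2 change of -3.09 (adjusted p = 0.53), had an unadjusted p under 0.05 from HE1 to HE2, and 0 did with DOX or from HE2 to HP. Of all genes 9.39% did from HE1 to HE2 and 8.22% with DOX, and 6.01% did from HE2 to HP and 2.75% with DOX. Without the SM arrays 4 of the 10 did from HE1 to HE2, against 10.6% of genes, and 2 with DOX, against 9.37%. From HE2 to HP 2 then did, against 7.2%, and 4 with DOX, against 3.66%. With the slide as a fixed block Ets1 was called from HE1 to HE2 (-1.61, adjusted p = 0.034, against 5.74% of genes). Without the SM arrays Sox7 was called from HE1 to HE2 (-3.24, adjusted p = 0.0093, against 3.17% of genes). In bulk samples, fewer expressing cells and less RNA per cell cannot be told apart.

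DOX changed none of the 10 genes past the test. In 5h cultures limma called 0 of 9 tested genes, where 0.00421% of all genes were called. In d1 BC, HE1 and HE2 it called 0 of 10, where 0% of genes were called, in SM 0 of 10 against 0.0084%, and in HP cells 0 of 10 against 0.0318%. None of the 10 had an unadjusted p under 0.05 in any of the 6 populations over all 27 arrays, where 8.88% of all genes did in HE2. In HE2 3 of the 10 did without the 2 SM arrays, against 10.6% of genes. The mean DOX effect over the 6 populations gave 0 calls against 0.152% of genes, and without the SM arrays 1 of the 10 had an unadjusted p under 0.05, where 6.49% of genes did. A difference that misses the test is not shown to be absent. For Erg in HE1 the log2 difference was 0.18, with a 95% interval from -2.28 to 2.63, and for Sox7 in HE1 it was 0.42, from -3.22 to 4.05.

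In HE2 cells all 10 genes had a higher mean with DOX by their brightest probe, with a median log2 difference of 0.90 over the 10 and 0.17 over all genes tested. The median was 0.72 with the mean of all probes. Of the 5 genes with other probes, 4 had a probe that was lower with DOX, at -0.17 for Etv2 (0.62 by the brightest probe), -0.09 for Ets1 (1.38), -0.42 for Erg (0.53) and -0.13 for Elk3 (1.04), so the direction for these 4 rests on the probe. For 6 of the 10, both DOX arrays lay above both untreated arrays, where this held for 20.3% of all genes. Sox7 was 0.29 and 1.62 without and 2.98 and 3.48 with DOX, a difference of 2.28 (SE 1.73, adjusted p = 0.58). Fli1 was 1.18 and 3.11 without and 3.30 and 4.37 with DOX (difference 1.69, adjusted p = 0.61). Ets1 was 1.98 and 3.37 without and 3.77 and 4.33 with DOX (difference 1.38, adjusted p = 0.56), but its other probe, well above background on all 27 arrays, gave -0.09 (unadjusted p = 0.87). On each of the 2 slides that held both groups, the brightest probes of all 10 genes were higher in the DOX array. Untreated HE2 replicate 1 was the dimmest array of the series, and without it 9 of 10 were higher, with a median of 0.42, and Sox17 was lower by 0.22. Without HE2 DOX replicate 2, the library low in Itga2b and Tek, all 10 were higher with a median of 0.68. The median was 0.51 under quantile normalization and with the authors' values, 1.37 under median scaling, 1.41 without HE2 replicate 2 and 1.37 without HE2 DOX replicate 1. The mean of the 6 myeloid markers was 1.54 and 1.32 without and 0.73 and -0.54 with DOX, and their summed signal was 135 and 43.7 without and 58.7 and 76.0 with DOX. Between 4 and 6 of the 6 were well above background on each of these arrays. Spi1, which encodes the myeloid factor PU.1, was -0.01 and -0.31 without DOX, -1.77 on HE2 DOX replicate 1 and not well above background on replicate 2. The part of these in the result was not tested.

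By the brightest probe, 9 of the 10 means were also higher with DOX in HE1 (median 0.34, against 0.09 over all genes) and 8 in HP cells (0.36 against 0.25). In d1 BC 6 of 10 were higher (0.06 against 0.13) and in 5h cultures 2 of the 9 tested (-0.22 against -0.04). Elk3 was 2.05 and 1.75 in untreated d1 BC and 1.13 and 0.57 with DOX, lower by 1.05 (SE 0.86). Sox17 in the same cultures was 0.18 and 0.53 without and 1.99 and 1.17 with DOX, a difference of 1.22. These were the only 2 of the 10 genes whose arrays did not overlap in d1 BC, 1 higher and 1 lower, where 18.9% of all genes lay wholly higher and 9.61% wholly lower. In HP cells 4 genes (Etv2, Ets2, Erg and Sox7) lay wholly higher with DOX, where 25.6% of all genes did. In SM cells all 10 means were higher with DOX in all arrays (median 0.42) and 3 of 10 without the 2 SM arrays (median -0.19). The 5 tests of whether the DOX effect differed between populations called 0 of the 10 genes each, where 0% of all genes were called. In these tests 0 of the 10 had an unadjusted p under 0.05, where 0.48% to 3.88% of all genes did.

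**Figure D4:**
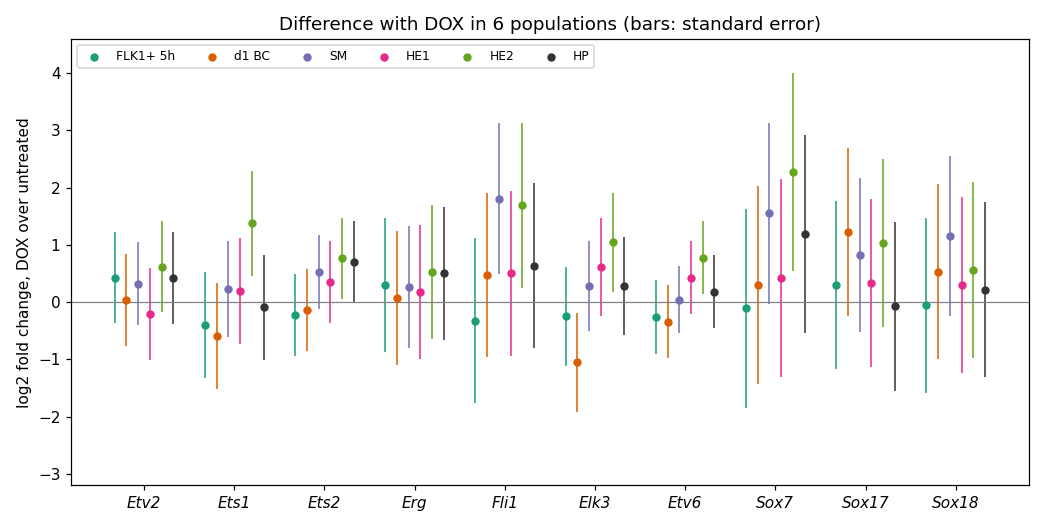
Log2 fold change of DOX over untreated cells for each of the 10 genes in the 6 populations, with bars of 1 standard error from limma over all 27 arrays. The HE2 points, in bright green, are above 0 for the brightest probe of all 10 genes and reach 2.28 for Sox7, and most bars of the other populations cross 0.

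Many endothelial genes known to carry ETS or SOXF elements rose in the step to HE1, but not all of them passed the test. The list of 30 was chosen with earlier results known, and all 30 were tested. From d1 BC to HE1, 16 rose and 0 fell, where 3.14% of all genes were called, with a median log2 change of 4.91 against 0.06 over all genes. Emcn, the sialomucin endomucin, was at least 36.8-fold higher (adjusted p = 0.0010). Notch4 rose by 5.10 (adjusted p = 0.0012), the TGF-beta co-receptor Eng by 4.55 (0.0017) and von Willebrand factor Vwf by 5.03 (0.0028). With DOX 18 rose and 0 fell, against 4.1% of all genes. Without the SM arrays 21 rose in each case, against 4.78% and 5.53%. From HE1 to HP 8 fell and 0 rose (median -2.65), against 4.2% of all genes called, and 14 fell without the SM arrays, against 5.33%. Among the 8 were Angpt2, which was at least 17.6-fold lower (adjusted p = 0.00012), and the arterial ligand Efnb2, which fell by 4.36 (0.00058). The SM to HE1 comparison called 7 higher, against 0.521% of all genes, and 20 without the SM arrays, against 3.49%.

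Of 19 other ETS genes 15 or 16 were tested in the steps named here. From FLK1+ cells to HE1 0 of 15 rose and 3 fell, where 11.5% of all genes were called: Etv5 by 3.63 (adjusted p = 0.0022), Etv4 by 3.08 (0.0034), both targets of FGF signalling, and Elf3, which was at least 4.26-fold lower (0.0082). Spi1 was at least 12.1-fold higher in HE2 than in HE1 (adjusted p = 0.0053) and at least 33.4-fold higher in HP cells (0.00032), and Etv1 fell by 2.76 from HE1 to HE2 (0.015) and was also lower in HP cells (0.0039). Of 16 other SOX genes 12 were tested from FLK1+ cells to HE1, where 11.5% of all genes were called. From HE1 to HE2 11 were tested, where 2.3% of all genes were called. Sox9 was at least 8.82-fold lower in HE1 than in FLK1+ cells (adjusted p = 0.0021), Sox6 was at least 4.49-fold higher (0.037), and Sox11 fell by 3.81 from HE1 to HE2 (0.012). Of 17 partner factors, 6 rose from FLK1+ cells to HE1 and 0 fell, against 11.5% of all genes called, led by Fosb (6.46, adjusted p = 1.9e-05) and the venous factor Nr2f2 (4.88, 5.4e-05). From HE1 to HP 4 fell, against 4.2% of all genes called, among them Foxc2 by 6.35 (0.0026), which acts with ETV2 at endothelial enhancers.

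Over the 13 group means, the 10 genes shared patterns with named genes, given here as a description over 16387 genes with a symbol. The points share slides and the SM arrays that stood apart. Sox18 was most like Plvap (Pearson r = 0.987), Esam (0.986) and Tnfaip8l1 (0.986), the first pair being endothelial membrane proteins. Ets2 was most like Rhoj (0.991) and Pde2a, Erg like Ccm2l (0.996), Igf1 and Dcaf6, and Elk3 like Tecpr1 (0.976), Sstr1 and Foxo1. Sox7 was most like Pcdh12 (0.983), a protocadherin of endothelium, N4bp3 and Hyal2, and Sox17 like Cemip2 (0.948), Madcam1 and Prex2. Ets1 was most like Stab1 (0.962), Tgfbr2 and Oit3, Fli1 like Lsm14b (0.965), Kank3 and Plxnc1, Etv6 like Septin9 (0.986), Cd1d1 and Art4, and Etv2 like Cnnm1 (0.971), Upp1 and Dnah11. Among the 10 themselves the highest correlation was between Ets2 and Sox18 (0.972) and the lowest between Etv2 and Etv6 (-0.73).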

How the data were processed

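RNA from 13 groups was hybridised to 27 one-colour Agilent arrays, 2 per group and 3 for untreated SM cells. The deposited scanner files hold spot intensity that the authors extracted with Agilent Feature Extraction (version 10.7.1.1 per the submitters' processing notes, 10.7.3.1 per the file headers), with background already subtracted. The authors' own processed log2 values were deposited as well and served as an alternative.

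Processed signals were taken to log2, the 75th percentile of these log2 values on each array was then subtracted, and control spots and outlier spots were left out. Of 55681 probes 26582 received a gene symbol through their RefSeq accession. The brightest probe stood for a gene, and a gene entered a test if every array of 1 or more of the compared groups gave it a signal well above background. limma 3.58.1 in R 4.3.3 fitted 1 mean per group over all 27 arrays, and p-values were adjusted by Benjamini-Hochberg over all genes tested. A gene was called at an adjusted p under 0.05 with at least a 2-fold change. Standard errors (SE) are those limma gives for a log2 change. The number of arrays limits the precision. The scripts were tested on simulated data.

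The 10 genes and the lists were chosen with earlier results of these data known. The text gives every one of the 10 genes, of the other lists at most the 4 called genes with the lowest adjusted p per comparison, and for each of the 10 the 3 genes with the most similar group means, of which 1 is not reported here. Of the marker genes, Cdh5, Pecam1 and Emcn were chosen after their values were seen. Alternatives covered background correction, scaling, the authors' values, probe filters, probe choice, replicate number, slide, scan day, the arrays fitted and leaving out each array. Leaving out both SM arrays of replicate 2 and the slide as a random block were added after seeing the data, as was the fit of each other probe of the 10 genes, with p-values adjusted over all probes tested. Replicates of a group correlated at 0.917 to 0.976, and no 2 arrays were identical. Promoter sequences came from RefSeq (GRCm38.p6).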

Additional observations from a re-analysis of the deposited data

Results flagged for a closer look

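For 3 of the 10 genes both DOX arrays lay on one side of the untreated arrays in 1 population and on the opposite side in another. How many of all genes did so was not counted, so this may be common. In single populations 4.37% (SM) to 25.6% (HP) of all genes lay wholly higher with DOX. Between 6.15% (SM) and 16.4% (5h cultures) lay wholly lower. The differences below are log2 DOX effects in 1 population minus those in the other. Etv2 was lower by 0.21 with DOX in HE1 and higher by 0.62 in HE2 and 0.42 in HP cells, differences of 0.83 and 0.63. The limma tests of these differences did not pass for Etv2 (unadjusted p = 0.47 for HE2 and 0.58 for HP). The other Etv2 probe was lower with DOX in all 3 populations, at -0.64 in HE1, -0.17 in HE2 and -0.33 in HP, so the opposite directions were seen on 1 of 2 probes. Ets2 was lower by 0.22 in 5h cultures and higher in HE1, HE2 and HP cells, with differences of 0.58, 0.99 and 0.92. Elk3 was lower by 0.25 in 5h cultures, with differences of 0.86 for HE1 and 1.29 for HE2, and lower by 1.05 in d1 BC, with differences of 1.67 and 2.10. The other Elk3 probes were at 0.02 and 0.61 in 5h cultures, where neither was lower. In d1 BC they were at -1.17 and -0.41, in HE1 at 0.54 and -0.38 and in HE2 at 1.34 and -0.13, so 1 of them gave opposite directions between d1 BC and HE1 or HE2. Ets2 had 1 probe. For Ets2 and Elk3 the difference was not tested. None of these DOX effects passed the test in its own population. Groups of 2 or 3 arrays were too small for a search for single outlying arrays.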

How the results depend on the processing

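Counts of the 10 genes called follow. Leaving out both SM arrays of replicate 2 gave 10 for the F test (6 over all arrays), 2 from 5 h to d1 BC (1), 7 from d1 BC to HE1 (4) and 8 with DOX (4), 9 from SM to HE1 without DOX (0), 1 from HE1 to HE2 (0) and 3 from HE1 to HP with or without DOX (0). The slide as a fixed block gave 0 from d1 BC to HE1 with or without DOX, 1 from FLK1+ to HE1 (6), 1 from HE1 to HE2 and 3 from HE1 to HP with or without DOX, and as a random block 2 from d1 BC to HE1, 2 from SM to HE1, 2 from HE1 to HP and 1 with DOX. From d1 BC to HE1 median scaling and no filter on dim probes gave 2 each and a fit of only the groups compared 0. That fit also gave 0 from 5 h to d1 BC with DOX (1) and 2 from HE1 to HP. From SM to HE1 quantile normalization gave 3 and 1 with DOX, and the authors' values 4 and 2 with DOX. The authors' values also gave 2 from 5 h to d1 BC. From HE1 to HP quantile normalization, the authors' values, the mean of all probes and the scan day gave 1 with and without DOX, and normexp and median scaling 1 with DOX. Over all alternatives the share of all genes called ran from 0% to 6.77% from d1 BC to HE1, 3.54% to 16% from FLK1+ to HE1, 0% to 3.49% from SM to HE1 and 1.39% to 10.1% from HE1 to HP. It ran from 0.199% to 2.94% from 5 h to d1 BC and 0% to 5.74% from HE1 to HE2. With DOX it ran from 0% to 3.84% from 5 h to d1 BC and 0.949% to 7.6% from d1 BC to HE1. From SM to HE1 with DOX it was 0.00482% to 2.26%, and from HE1 to HP with DOX 0% to 6.97%. Smaller changes in count also hid lost calls. From FLK1+ to HE1 Ets2 was lost under median scaling (adjusted p = 0.103), the scan day (0.125) and the random slide block (0.065), and Sox18 under the scan day (0.053). From d1 BC to HE1 Erg was lost under the scan day (0.056) and Elk3 where a probe had to be above background in both groups (0.054).

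Over 66 pairs of groups the deviations of same-numbered arrays correlated between -0.44 and 0.67, so the numbers did not pair the samples across the series. In the 18 pairs of groups that lay on the same slides, as HE1, HE2 and HP did, they correlated between 0.12 and 0.67, and there replicate number and slide cannot be told apart. With the replicate number as a block, the count was 1 from HE1 to HP with and without DOX and 7 from FLK1+ to HE1, and no other count changed. Leaving out 1 array gave 0 to 0 from d1 BC to HE1, 1 to 1 with DOX, 2 to 3 from FLK1+ to HE1, 0 to 1 from 5 h to d1 BC with or without DOX, 0 to 7 from SM to HE1, 0 to 4 with DOX, and 5 to 8 for the F test. All DOX effects stayed at 0 called in every alternative run.

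Among single genes followed by setting, which are those called over all arrays or without the 2 SM arrays and the DOX effects in HE2, directions turned in 9 cases. With the slide as a fixed block Sox7 was -0.69 from FLK1+ to HE1, Fli1 was -0.44 and Sox7 -0.30 from d1 BC to HE1, and with DOX Fli1 was -0.41 and Sox7 -0.18. With 1 SM DOX array left out, the SM to HE1 change with DOX ran from -0.044 (without SM DOX replicate 1) to 3.37 (without replicate 2) for Ets1, from -0.53 to 4.90 for Fli1 and from -0.36 to 6.67 for Sox7. With 1 HE2 array left out, the DOX effect on Sox17 in HE2 ran from -0.22 (without HE2 replicate 1) to 2.28 (without HE2 replicate 2). Over the mean DOX effect, 10 of 10 genes were higher, but 7 under quantile normalization and with the authors' values, 9 with the mean of all probes, 5 without SM DOX replicate 2 and 8 without both SM arrays. The DOX effect in SM was higher in 3 of 10 without those arrays. In HE2, 1 of 10 had an unadjusted p under 0.05 for DOX under median scaling, either slide block, the scan day block and the fit of only the groups compared. In the main fit 0 of 10 did, where 8.88% of all genes did, so 1 of 10 is near that share. The cause was not tested. Erg was not tested from FLK1+ to HE1 where a probe had to be above background in both groups, and its signal over background limits its values in FLK1+ and 5h samples.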
